A study of Mus musculus with 8 samples.

Results

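The leukocyte integrin genes, 10 of the 55487 genes in the table, were described in J774A.1, a mouse macrophage cell line, after exposure to lipopolysaccharide (LPS) with or without ursodeoxycholic acid (UDCA). The genes were Itgam, Itgal, Itgax, Itgb2, Itga4, Itgb1, Itga5, Itgav, Itgb3 and Itgb7, which encode 6 alpha and 4 beta subunits. They were selected by name from the TPM table, with the TPM values of both groups known from this comparison, so their levels and differences are given as a description and no p-value is attached to them. Both groups received LPS, a component of the outer membrane of Gram-negative bacteria that activates macrophages, for 24 h. The LPS group received nothing else, and the LPS + UDCA group also received UDCA, a secondary bile acid. By the study's methods, LPS was used at 1 μg/mL and UDCA at 1 mM. Each group had 4 RNA-seq libraries, and no library without LPS was analysed here. All libraries came from 1 cell line, and the labels do not say whether the 4 libraries of a group came from separate cultures, so errors and p-values measure only the spread between these libraries, which may be technical. The comparison asks how UDCA changes gene expression of macrophages that are activated by LPS.

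Integrins are heterodimers of 1 alpha and 1 beta subunit that bind other cells, extracellular matrix or opsonized particles on the outside and the actin cytoskeleton on the inside. The beta 2 integrins are restricted to leukocytes and share the subunit encoded by Itgb2, which pairs with the products of Itgal (CD11a, giving LFA-1), Itgam (CD11b, giving Mac-1 or complement receptor 3), Itgax (CD11c) and Itgad. Itga4 pairs with Itgb1 or Itgb7, Itga5 with Itgb1, and Itgav with Itgb1, Itgb3 or other beta subunits. An unpaired subunit is largely kept inside the cell, so transcript levels need not equal surface levels. The study also stained macrophages for CD11b and CD11c, the proteins of Itgam and Itgax, in flow cytometry, which was not analysed here.

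The authors deposited TPM, in which the reads of a gene are divided by its length and scaled to a library total. TPM can be compared between genes within a library but keeps no depth, so only the spread between libraries could be used as error. The column totals were 973190 to 977485 in the LPS libraries and 958918 to 962737 in the LPS + UDCA libraries. Pearson's r across genes was 0.974 to 0.982 within groups and 0.905 to 0.919 between groups, and 0 of 28 library pairs held identical values. Of 10 macrophage markers, Mertk was at 0 in every library, and the summed level of the list was 3793 to 4060 TPM with LPS and 1770 to 1985 TPM with LPS + UDCA. Fold changes are on the log2(TPM + 1) scale, and for weakly expressed genes they are smaller than the ratio of TPM values. RNA was pooled over cells, and a smaller number of cells with a transcript cannot be told apart from less of it per cell.

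Itgam (ENSMUSG00000030786, chr7:128062640-128118491, plus strand, GRCm38) encodes the alpha subunit CD11b and shares much of its sequence with an overlapping locus. That locus, Gm49368 (chr7:128062683-128128160, plus strand), begins within the first exon of Itgam, follows its exons and ends further downstream. Of the 31-base words in the transcripts of Itgam, 68.3% also occurred in another gene, and 67.2% in Gm49368. The transcripts Itgam-203 (4649 bases) and Gm49368-201 (4803 bases) both have 30 exons, of which 29 have the same end, and 3450 bases are identical, which is 74.2% of the former and 71.8% of the latter. A read from the shared exons does not tell these transcripts apart, and how such reads were assigned was not given in the sources used here. The point where the transcripts part is shown because only reads over or beyond it separate the 2 genes. Each sequence gives, 5′ to 3′ from the GENCODE M21 transcripts, the last 30 bases of the shared exon in lower case (chr7:128116817-128116846, plus strand), followed in capitals by the first 30 coding bases of the last exon. The capitals stand at chr7:128117306-128117335 in Itgam and at chr7:128126808-128126837 in Gm49368, both in coding sequence.
Itgam: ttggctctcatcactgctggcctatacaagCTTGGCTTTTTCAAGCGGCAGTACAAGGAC
Gm49368: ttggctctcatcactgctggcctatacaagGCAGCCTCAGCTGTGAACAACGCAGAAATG

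**Figure D1:**
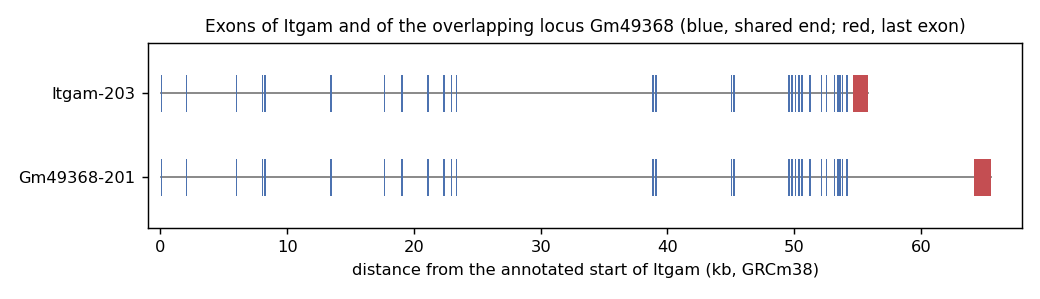
Exons of Itgam-203 and Gm49368-201 along the distance from the annotated start of Itgam, in kb on GRCm38. Blue marks the 29 exons that end at the same base in both transcripts and red the last exon, which lies further downstream in Gm49368 than in Itgam.

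Itgam stood at 187, 173, 162 and 183 TPM in the 4 LPS libraries and at 21.97, 26.3, 20.4 and 22.1 TPM in the 4 LPS + UDCA libraries. Every LPS library lay above every LPS + UDCA library, and the lowest LPS value was far above the highest LPS + UDCA value. The mean was 176 ± 11.3 TPM (SD, n = 4) with LPS and 22.7 ± 2.50 TPM (SD, n = 4) with LPS + UDCA, so the level with UDCA was 0.129 of that without. The log2 fold change was -2.91 with a standard error of 0.078, the 45th lowest among 11796 genes fitted, which were those averaging at least 1 TPM. Gm49368 gave 14.4, 13.1, 14.1 and 20.8 TPM with LPS and 2.93, 2.73, 1.83 and 3 TPM with LPS + UDCA. The log2 fold change of this gene was -2.19 (standard error 0.16). Both genes were lower in all LPS + UDCA libraries, but they share most of their bases and are not separate observations. When the TPM of Gm49368 was added to that of Itgam, the log2 fold change was -2.88. Gm45700, a processed pseudogene inside the last exon of Gm49368 with all of its words (100%) in that gene, was at 6.97, 5.25, 8.33 and 0.11 TPM with LPS and at 0.87, 0, 2.03 and 0 TPM with LPS + UDCA. These pseudogene values overlapped between the groups, and LPS replicate 4 had the lowest value of its group for Gm45700 and the highest for Gm49368.

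Itgb2 (chr10:77530252-77565708), the common beta subunit of the leukocyte integrins, was at 95.8, 91.3, 91.9 and 90.9 TPM with LPS and at 119, 125, 115 and 109 TPM with LPS + UDCA. Here all LPS + UDCA libraries lay above all LPS libraries. The mean was 92.4 ± 2.25 TPM without UDCA and 117 ± 6.86 TPM with it (SD, n = 4 each), and the log2 fold change was 0.34 with a standard error of 0.047. Its direction was therefore opposite to that of Itgam.

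Itgal (chr7:127296260-127335138), which encodes the alpha subunit of LFA-1, was at 27.0, 25.8, 24.4 and 25.04 TPM with LPS and at 18.5, 20.7, 16.1 and 17.0 TPM with LPS + UDCA. All LPS + UDCA libraries lay below all LPS libraries, by a far smaller fold than for Itgam. The means were 25.6 ± 1.11 and 18.1 ± 2.02 TPM (SD, n = 4 each), with a log2 fold change of -0.48 and a standard error of 0.077. Itgax (chr7:128129547-128150657), which encodes CD11c, gave 0.21, 0.59, 1.21 and 0.36 TPM with LPS and 0.37, 0.71, 0.70 and 0.64 TPM with LPS + UDCA. Its means of 0.593 ± 0.440 and 0.605 ± 0.160 TPM were below the minimum of 1 TPM, it was not fitted, and the groups overlapped. Of the words of Itgax, 10.7% are shared with Itgad, which had a mean of 0 TPM without UDCA and 0.005 TPM with it.

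Among the alpha subunits that pair with beta 2, Itgam took 87.1% ± 0.652 of the summed TPM with LPS and 54.8% ± 0.788 with LPS + UDCA (SD, n = 4 each). The share of Itgal was 12.6% ± 0.467 and 43.7% ± 1.15. The ranges of both shares were apart, and LPS libraries were uniform, with Itgam shares of 87.3%, 86.8%, 86.3% and 87.8%. With LPS + UDCA these shares were 53.8%, 55.1%, 54.9% and 55.6%. The summed TPM of the alpha partners was 2.19 ± 0.110 times that of Itgb2 with LPS and 0.353 ± 0.0254 times with LPS + UDCA, so the alpha transcripts exceeded the beta 2 transcript in the first group and were fewer in the second. Itgam alone stood at 1.91 ± 0.109 times Itgb2 with LPS and at 0.194 ± 0.0154 times with LPS + UDCA. These shares and ratios and the Itgam ranks below can depend on how reads shared with Gm49368 were assigned, which was not given.

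**Figure D2:**
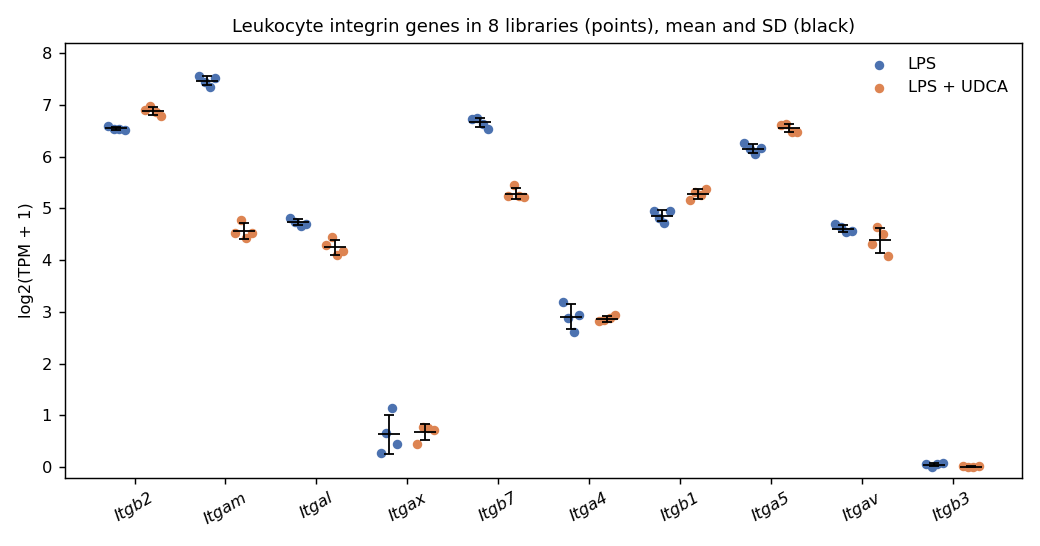
The 10 integrin genes in each of the 8 libraries on the log2(TPM + 1) scale (points, LPS in blue and LPS + UDCA in orange), with the mean and SD of each group in black. Itgam and Itgb7 lie well below their LPS values with UDCA, Itgb2, Itgb1 and Itga5 lie a little above, and Itgax and Itgb3 stay near 0 in both groups.

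Itgb7 (chr15:102215995-102231944, minus strand), the beta subunit of the gut-homing integrin alpha 4 beta 7 and of the integrin that binds E-cadherin, was at 104, 107, 98.2 and 92.2 TPM with LPS. With LPS + UDCA it was at 36.8, 42.5, 36.8 and 36.1 TPM. The groups were far apart, and replicate 2 was the highest LPS + UDCA library. The means were 100.3 ± 6.45 and 38.1 ± 2.98 TPM (SD, n = 4 each), the level with UDCA was 0.379 of that without, and the log2 fold change was -1.38 with a standard error of 0.065.

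Itga4 (chr2:79255426-79333123), the alpha partner of Itgb7 and Itgb1 that binds VCAM-1, MAdCAM-1 and fibronectin, was at 8.17, 6.34, 5.14 and 6.66 TPM with LPS. With LPS + UDCA it was at 6.05, 6.16, 6.35 and 6.71 TPM. The groups overlapped, with means of 6.58 ± 1.25 and 6.32 ± 0.290 TPM (SD, n = 4 each) and a log2 fold change of -0.04 with a standard error of 0.12. Words of Itga4 also found elsewhere made up 8.85%, mostly in Cerkl, a gene on the opposite strand with at most 6.57 TPM. Itga4 stood at 0.0656 ± 0.0118 times the TPM of Itgb7 with LPS and at 0.167 ± 0.0170 times with LPS + UDCA, without overlap. Itgae, the other alpha partner of Itgb7, had a mean of 0.04 TPM without UDCA and 0.0175 TPM with it.

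Itgb1 (chr8:128685654-128733200), the beta subunit shared by most matrix receptors, was at 29.7, 27.2, 25.5 and 29.7 TPM with LPS and at 34.7, 38.9, 37.5 and 40.4 TPM with LPS + UDCA. Itga5 (chr15:103344286-103366763, minus strand), its partner in the fibronectin receptor, was at 75.8, 69.4, 65.3 and 71.1 TPM with LPS and at 96.7, 98.2, 88.4 and 88.1 TPM with LPS + UDCA. Both genes were higher in all LPS + UDCA libraries than in any LPS library. Itgb1 had means of 28.03 ± 2.09 and 37.8 ± 2.42 TPM (SD, n = 4 each) and a log2 fold change of 0.42 with a standard error of 0.067. Itga5 had means of 70.4 ± 4.33 and 92.8 ± 5.33 TPM (SD, n = 4 each) and a log2 fold change of 0.39 with a standard error of 0.057. The ratio of Itga5 to Itgb1 was 2.51 ± 0.0821 with LPS and 2.47 ± 0.257 with LPS + UDCA, and the groups overlapped.

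Itgav (chr2:83724397-83806916), the alpha subunit of receptors for vitronectin, osteopontin and apoptotic cell bridges, was at 24.9, 24.0, 22.2 and 22.7 TPM with LPS and at 18.9, 23.9, 21.6 and 16 TPM with LPS + UDCA. The groups overlapped, and the LPS + UDCA libraries were the more scattered. The means were 23.4 ± 1.22 and 20.1 ± 3.41 TPM (SD, n = 4 each), with a log2 fold change of -0.23 and a standard error of 0.11. Of its words, 5.61% lie in Gm13684, a transcript of the opposite strand with at most 0.13 TPM. Itgb3 (chr11:104608000-104670476), its beta partner on platelets and osteoclasts, did not exceed 0.06 TPM in any library and was not fitted.

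The order of levels differed between the groups. With LPS it ran from Itgam through Itgb7, Itgb2, Itga5, Itgb1, Itgal, Itgav, Itga4 and Itgax to Itgb3, and the libraries of neighbours overlapped between Itgb7 and Itgb2, Itgb1 and Itgal, and Itgal and Itgav. With LPS + UDCA it ran from Itgb2 through Itga5, Itgb7, Itgb1, Itgam, Itgav, Itgal, Itga4 and Itgax to Itgb3, with overlap between Itgb7 and Itgb1, Itgam and Itgav, and Itgav and Itgal. Itgam was thus in the first place with LPS and in the fifth with LPS + UDCA.

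Of the 8 fitted genes, 2 were past both thresholds used for all genes (a fold of at least 2 and an FDR under 0.05) in the lower direction, Itgam and Itgb7, and 0 in the higher direction. Over all 11796 genes, 8.44% were called lower and 8.71% higher. The groups were apart for 6 of the 8, of which Itgb2, Itgb1 and Itga5 were higher with UDCA and Itgam, Itgal and Itgb7 lower, beside groups apart for 66.8% of all genes fitted. Without a minimum fold, 3 had an FDR under 0.05 in the higher and 3 in the lower direction, beside 40.2% and 32.3% of all genes. Nothing is read from these counts, since the comparison was known when the genes were selected. The nearest gene inside the fold of 2 was Itgb7 at -1.38 and the nearest outside was Itgal at -0.48. The median log2 fold change of the 8 was -0.13, and that of all genes was 0.08.

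The table holds 27 integrin subunits, 18 alpha and 9 beta, of which 11 had a mean of at least 1 TPM. Summed over all alpha subunits, TPM was 333 ± 17.0 with LPS and 184 ± 13.1 with LPS + UDCA (SD, n = 4 each), without overlap. Summed over all beta subunits, it was 243 ± 8.15 and 222 ± 10.8, and the groups overlapped. Itgam supplied 52.8% ± 0.824 of the alpha TPM with LPS and 12.3% ± 0.688 with LPS + UDCA, while the share of Itga5 was 21.1% ± 0.309 and 50.6% ± 1.27. On the beta side, Itgb7 supplied 41.3% ± 1.54 and 17.1% ± 0.520, and Itgb2 38.1% ± 0.804 and 52.8% ± 1.37. The most abundant alpha transcript was thus Itgam with LPS and Itga5 with LPS + UDCA.

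**Figure D3:**
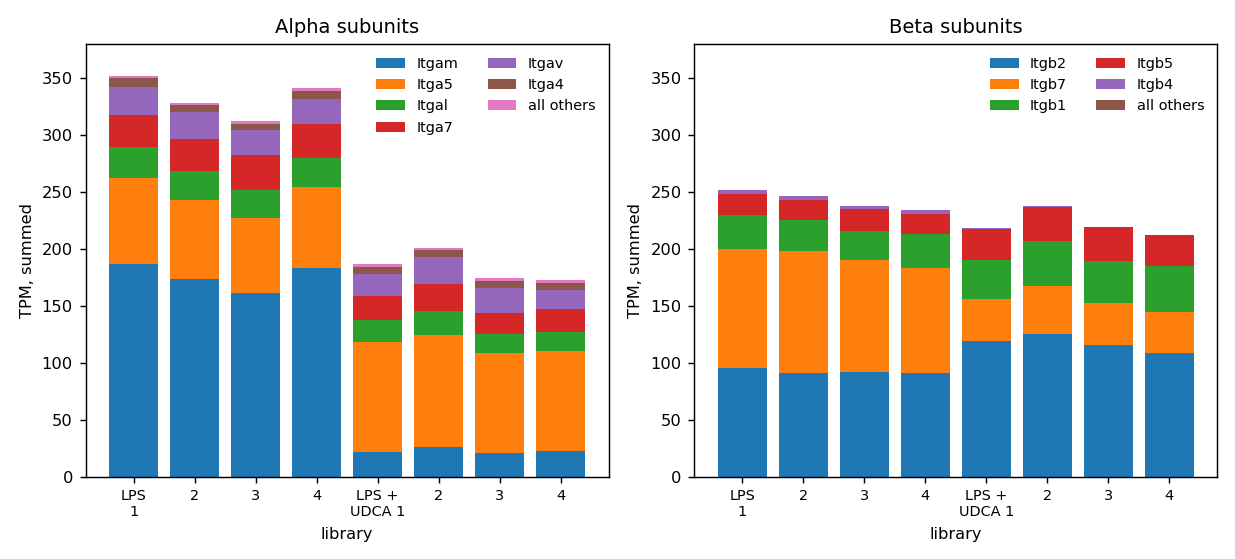
TPM of the alpha (left) and beta (right) integrin subunits, stacked in each of the 8 libraries (LPS 1 to 4, then LPS + UDCA 1 to 4). The blue Itgam segment fills 52.8% of the alpha bars on average with LPS and 12.3% with LPS + UDCA, while in the beta bars the Itgb7 segment is smaller and the Itgb2 segment larger with LPS + UDCA.

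Of the 18 integrin subunits outside the 10 genes, 3 were fitted, and 15 had a mean under 1 TPM, including 6 at 0 in every library (Itga1, Itga2, Itgb2l, Itgb6, Itgb8 and the integrin-like Itgbl1). Itgb4, the laminin-receptor subunit of hemidesmosomes, fell from 3.45 ± 0.483 to 0.175 ± 0.0827 TPM (SD, n = 4 each; log2 fold change -1.92, limma FDR 1.21e-06), and 5.83% of its words also occur in other genes. With 5 as the pseudocount Itgb4 was no longer called, at -0.71. Itga7, an alpha subunit of laminin receptors, was at 29.1 ± 1.41 TPM without UDCA and 21.2 ± 2.07 TPM with it, and Itgb5, a partner of Itgav, at 18.3 ± 0.694 and 28.7 ± 1.73 TPM. Their log2 fold changes of -0.45 and 0.62 did not reach a fold of 2, and these 2 were named after their values were seen. The list had 0 genes called higher and 1 lower, beside 8.71% and 8.44% of all genes. Its median was -0.45, beside 0.08 for all genes.

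Promoters of 7 of the 10 genes were found in RefSeq (GRCm38.p6), and those of Itgal, Itgb2 and Itgb3 were not. The promoters of Itgam and Itgb7 are shown because these genes were past both thresholds. Each has 250 bases before and 50 after the annotated start, 5′ to 3′ on the strand of the gene, and capitals mark GAGGAA or its reverse complement, a core to which ETS factors such as PU.1 of myeloid cells can bind. The Itgam sequence is chr7:128062390-128062689 (plus strand, 50.3% GC) and the Itgb7 sequence chr15:102231886-102232185 (minus strand, 56.3% GC).
Itgam: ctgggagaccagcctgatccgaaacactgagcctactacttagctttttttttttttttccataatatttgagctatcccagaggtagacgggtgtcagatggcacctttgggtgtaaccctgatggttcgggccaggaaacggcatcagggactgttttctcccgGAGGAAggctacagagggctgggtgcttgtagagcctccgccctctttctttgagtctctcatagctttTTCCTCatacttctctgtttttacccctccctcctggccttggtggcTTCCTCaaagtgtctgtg
Itgb7: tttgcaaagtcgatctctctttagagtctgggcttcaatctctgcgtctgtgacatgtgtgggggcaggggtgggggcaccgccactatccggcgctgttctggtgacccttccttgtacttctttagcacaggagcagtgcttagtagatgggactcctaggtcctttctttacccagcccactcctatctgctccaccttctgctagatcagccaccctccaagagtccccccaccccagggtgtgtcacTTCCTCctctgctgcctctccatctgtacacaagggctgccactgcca

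The Itgam window held 3 matches to GAGGAA, beginning 84 and 15 bases before the start and at base 33 after it, and the Itgb7 window 1, at base 3. Searched on both strands, the letters were in 5 of the 7 windows (Itgam, Itgb7, Itgb1, Itga5 and Itgav) and in 28.3% of 32851 mouse promoters of that length. The genes with a match include genes higher, lower and overlapping between the groups. The GC box GGGCGG was in 5 of the 7 (Itgam, Itgb1, Itga4, Itga5 and Itgav) and in 35.7% of all, the TATA letters TATAAA in 0 of the 7 and in 13.6%, and the AP-1 letters TGANTCA in 1 (Itgax) and in 7.81%. The 4 motifs do not overlap in these genes. A match describes letters only, and binding was not measured.

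Of 24 genes for integrin ligands, 16 averaged under 1 TPM, including 3 at 0 in every library (Fga, Fgg and Madcam1). Of the 8 fitted, 0 were called higher and 2 lower, beside 8.71% and 8.44% of all genes. The median log2 fold change was -0.23, beside 0.08 for all genes. Icam2, a ligand of LFA-1, fell from 6.84 ± 0.644 to 0.635 ± 0.334 TPM (log2 fold change -2.28, limma FDR 1.38e-06). Spp1, osteopontin, a ligand of alpha v and alpha 4 integrins, fell from 6701 ± 322 to 3042 ± 152 TPM (log2 fold change -1.14, limma FDR 5.21e-08), and 14.3% of its words are shared with Gm42793. Icam1, a ligand of LFA-1 and Mac-1 with 14.8% of its words shared, averaged 67.2 ± 1.24 TPM with LPS and 125 ± 5.97 TPM when UDCA was added. Its log2 fold change of 0.88 was under the fold of 2, and it was named after its values were seen.

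Genes that turn integrins on or off from inside the cell gave 1 higher and 2 lower calls among 22 fitted of 29. All genes gave 8.71% and 8.44%. The median was -0.11, beside 0.08 for all genes. Rasgrp2, which activates the GTPase Rap1, fell from 2.80 ± 1.19 to 0.453 ± 0.534 TPM (log2 fold change -1.40, limma FDR 0.00253), and was no longer called with a pseudocount of 5, at -0.51. Sipa1, which inactivates Rap1, fell from 45.8 ± 3.34 to 22.4 ± 4.10 TPM (-1.01, limma FDR 4.57e-05). That call was lost without LPS replicate 2 (-0.99), LPS replicate 3 (-0.98), LPS + UDCA replicate 3 (-0.94) or LPS + UDCA replicate 4 (-0.94), and with equal protein-coding totals (-0.99). Krit1, a Rap1 effector, rose from 5.48 ± 0.479 to 12.03 ± 0.928 TPM (1.01, limma FDR 4.01e-06). It was not called without LPS replicate 2 (0.98), LPS replicate 4 (0.98), LPS + UDCA replicate 2 (0.98) or LPS + UDCA replicate 3 (0.99), nor after quantile normalization (0.92) or median-of-ratios scaling (0.94). Tln1, talin, which binds beta tails, was at 188 ± 11.8 and 115 ± 8.63 TPM, and Fermt3, kindlin-3 of blood cells, at 134 ± 5.80 and 141 ± 14.1 TPM. Neither reached a fold of 2, with -0.71 and 0.07, and both were named after their values were seen.

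The complex that couples integrins to actin and kinases gave 3 higher and 3 lower calls among 29 fitted of 33 genes found. All genes gave 8.71% and 8.44%. The median was -0.41, beside 0.08 for all genes. Tns3, a tensin that binds beta tails, fell from 28.3 ± 2.05 to 10.002 ± 0.344 TPM (-1.41, limma FDR 1.04e-07). Arhgef7, an exchange factor for Rac and Cdc42, fell from 96.6 ± 4.28 to 37.5 ± 3.03 TPM (-1.35, limma FDR 1.18e-07), and Actn1, an actin cross-linker with 8.50% of its words shared, from 63.9 ± 5.63 to 27.9 ± 2.01 TPM (-1.17, limma FDR 8.31e-07). In the other direction, the kinase Src rose from 6.38 ± 0.534 to 14.8 ± 0.614 TPM (1.10, limma FDR 8.60e-07). Lims1, PINCH1, which binds integrin-linked kinase, rose from 11.2 ± 1.21 to 26.5 ± 2.0 TPM (1.17, limma FDR 1.98e-06), and the scaffold Bcar1 from 2.78 ± 0.464 to 7.60 ± 0.389 TPM (1.19, limma FDR 6.60e-06). With a pseudocount of 5 the 3 higher calls were lost, at 0.80, 0.96 and 0.70.

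Membrane proteins that associate with integrins gave 1 higher and 2 lower calls among 13 fitted of 15 found. All genes gave 8.71% and 8.44%. The median was -0.43, beside 0.08 for all genes. Cd81, a tetraspanin, fell from 42.8 ± 0.677 to 14.3 ± 1.26 TPM (-1.52, limma FDR 6.05e-08), and Plaur, the urokinase receptor, which binds Mac-1, from 248 ± 8.85 to 94.4 ± 7.93 TPM (-1.39, limma FDR 8.33e-08). Cd151, another tetraspanin, rose from 22.1 ± 1.07 to 45.3 ± 1.28 TPM (1.00, limma FDR 1.58e-07), just past the fold of 2, with 5.63% of its words shared. That call was lost without LPS replicate 1 (0.99), LPS replicate 2 (0.99), LPS replicate 3 (1.00) or LPS + UDCA replicate 4 (0.99), and after quantile normalization (0.98) or median-of-ratios scaling (0.93). Slc3a2, the CD98 heavy chain, which binds beta tails, averaged 447 ± 11.4 TPM without UDCA and 895 ± 8.81 TPM with it. Its log2 fold change of 0.999 was just under the fold of 2, and it was called higher without LPS replicate 2 (1.02) or LPS + UDCA replicate 2 (1.01), after quantile normalization (1.13) and with equal protein-coding totals (1.02). It was named after its values were seen.

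Genes of integrin traffic gave 2 higher and 2 lower calls among 14 fitted of 16, beside 8.71% and 8.44% of all genes. The median was 0.03, beside 0.08 for all genes. Dab2, a clathrin adaptor that takes up integrins, fell from 86.8 ± 9.03 to 22.6 ± 0.90 TPM (-1.89, limma FDR 4.97e-08). Arf6, a GTPase of recycling, fell from 167 ± 28.2 to 77.8 ± 10.3 TPM (-1.09, limma FDR 5.04e-05), with 10.7% of its words shared. Rabgap1, an inactivator of Rab GTPases, rose from 8.54 ± 0.918 to 18.1 ± 1.69 TPM (1.01, limma FDR 7.33e-06), and Rab5a, the GTPase of early endosomes, from 22.3 ± 1.70 to 46.0 ± 3.20 TPM (1.01, limma FDR 1.39e-06), with 6.27% of its words shared. Both were just past the fold of 2. Rabgap1 was not called without LPS replicate 2 (1.00), LPS replicate 3 (0.95) or LPS + UDCA replicate 4 (0.95), nor Rab5a without LPS replicate 3 (0.97) or LPS + UDCA replicate 4 (0.97). After quantile normalization both were under the fold of 2, at 0.94 and 0.99, as they were after median-of-ratios scaling, at 0.93 and 0.94.

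**Figure D4:**
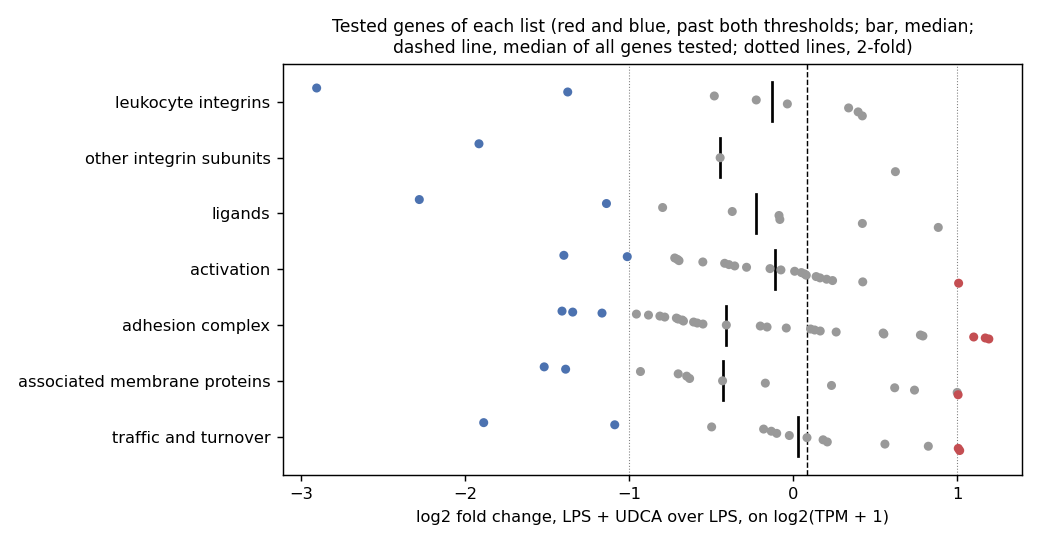
Log2 fold change on log2(TPM + 1), LPS + UDCA over LPS, for each fitted gene of the 10 integrins and of the 6 lists, with red and blue for genes past both thresholds, grey for the others, black bars for list medians and a dashed line for the median of all genes. Itgam, at -2.91, lies furthest left, and the medians run from -0.45 to 0.03.

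Markers of macrophages and of other cells moved in the same comparison. Of the 9 macrophage markers fitted, 2 were called higher and 4 lower at both thresholds, beside 8.71% and 8.44% of all genes. By FDR alone 3 were higher and 5 lower, beside 40.2% and 32.3% of all genes. Adgre1 (F4/80) rose from 46.6 ± 3.97 to 114 ± 8.24 TPM (limma FDR 4.64e-07) and Fcgr1 (CD64) from 37.7 ± 1.35 to 107 ± 9.20 TPM (limma FDR 6.60e-08). The lysozyme gene Lyz2 fell from 1988 ± 93.8 to 436 ± 19.97 TPM (limma FDR 1.28e-09), with 32.8% of its words shared with Lyz1. Cd68, Csf1r and Mpeg1 also fell, with log2 fold changes of -1.39, -1.35 and -1.15. Of the words of Csf1r, 14.95% are shared with other genes. Itgam is also abundant in neutrophils. Of 7 neutrophil markers, Ly6g, Elane and Camp were at 0 in every library, and Mpo and Ngp reached at most 0.21 and 0.05 TPM. The list summed to 18.6 to 25.4 TPM in LPS libraries and to 2.72 to 9.03 TPM when UDCA was added. Most of this was S100a8 (19.2 ± 1.6 and 4.52 ± 3.04 TPM). S100a9 fell from 2.17 ± 1.42 to 0.24 ± 0.205 TPM. These 2 were the markers fitted, and both were called lower (limma FDR 0.000179 for S100a8 and 0.00274 for S100a9). Itgal and Itgb7 are high in lymphocytes. The 6 T cell markers summed to at most 0.06 TPM, with Cd3e, Cd3g, Cd8a and Trac at 0, and the 5 B cell markers to 3.10 to 4.50 and 0.35 to 1.6 TPM. Platelet and megakaryocyte markers (5 genes) summed to 2.20 to 3.51 and 0.86 to 1.96 TPM, and those of fibroblasts (6 genes) and of epithelium (5 genes) each to at most 0.12 TPM. The part of these markers in the integrin results was not tested.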

How the data were processed

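RNA of J774A.1 cells was sequenced from 4 LPS and 4 LPS + UDCA libraries, prepared with an Illumina TruSeq kit per the labels and sequenced on a HiSeq instrument. The authors deposited TPM per gene and library, with 55487 genes by Ensembl identifier and values to 2 decimals. The unit was taken from the values, whose totals (958918 to 977485) were similar in all libraries. The submitters' processing notes name Bowtie 0.12.2 and the builds mm10 and GRCm38. The counting program, its use of strand and its treatment of reads shared by genes were not given in the sources used here. Without a stated strand setting, reads of antisense neighbours cannot be told apart. Counting error could not be computed, because TPM does not keep the depth.

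Groups were taken from the sample labels. The methods describe LPS and UDCA given singly or together, and the labels name LPS alone and both. The integrin genes, the gene lists and the tests were chosen with earlier results of these data known. The 11796 genes that averaged 1 TPM or more were fitted as log2(TPM + 1) by limma 3.58.1 (lmFit, eBayes with a mean-variance trend) in R 4.3.3. Calls needed a 2-fold difference and an FDR (Benjamini-Hochberg, over all 11796 genes) under 0.05, the thresholds of the study's methods. The fit was run on simulated normal values with changes of known size. That run does not check the noise of TPM, weakly expressed genes or calls near a fold of 2. Of the 10 integrins 8 were fitted, and only their log2 fold changes, standard errors and calls are given, as a description.

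All 10 integrins were named, and of each list (other subunits, ligands, activation, adhesion complex, associated membrane proteins, traffic) the 3 highest and 3 lowest log2 fold changes among called genes. Genes that overlap an integrin or share at least 5% of its 31-base words were named beside it, apart from Mir6963 and Dnmt3l-ps1. Mir6963, a microRNA that overlaps Itga5, was at 0 TPM, and Dnmt3l-ps1, a pseudogene that overlaps Itgav, at most at 0.24 TPM. In 2 lists 1 symbol was not found. Itgbl1 was kept in the list of other subunits and left out of the 27. Shares and ratios were computed from TPM within each library. Positions, overlaps and words are from GENCODE M21 on GRCm38, in which 260 of the listed identifiers were not found, and promoters are from RefSeq. Alternatives added the replicate number as a block or changed the normalization, the filter, the pseudocount, the trend, the thresholds or the libraries. Tables were made with pandas 2.3.3 in Python 3.11.15, and plots with matplotlib 3.10.9.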

Additional observations from a re-analysis of the deposited data

Results flagged for a closer look

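In 3 of 86 groups of 4 libraries, 1 library stood apart from the others by Dixon's test, beside 4.3 that chance would give at 1 in 20. Itgb7 was highest in LPS + UDCA replicate 2, at 42.5 TPM against 36.8 TPM in the nearest library, a gap of 0.890 of the group's range. Gm49368, the gene that overlaps Itgam, was highest in LPS replicate 4, at 20.8 TPM against 14.4 TPM in the nearest, a gap of 0.836 of the range. The ratio of Itga5 to Itgb1 was lowest in LPS replicate 4, at 2.39 against 2.55 in the nearest, a gap of 0.910 of the range.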

How the results depend on the processing

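The log2 fold changes of Itgam (-2.98 to -2.71), Itgb7 (-1.45 to -1.29), Itgal (-0.56 to -0.41), Itgb2 (0.26 to 0.41), Itgb1 (0.34 to 0.46), Itga5 (0.32 to 0.46) and Itgav (-0.31 to -0.13) kept their sign in every alternative run, and Itga4 ranged from -0.13 to 0.06. Itgam and Itgb7 stayed past both thresholds, and no called gene named above changed direction. Calls of list genes near a fold of 2 did change, and the cause was not tested except where stated. After quantile normalization the ligand median was -0.36, and the activation and traffic lists had 0 genes called higher. With median-of-ratios scaling the activation, associated-protein and traffic lists had 0 called higher. With equal protein-coding totals the activation list had 1 called lower and the associated proteins 2 higher. With all genes above 0 TPM, which adds genes near 0, medians were -0.00059 for the other subunits, -0.014 for ligands, -0.16 for the adhesion complex and -0.27 for associated proteins. With at least 1 TPM in every library, which removes genes that fell to low values, the other subunits had 0 called lower and a median that changed sign (0.088), the ligands 1 (median -0.087) and activation 1. A pseudocount of 0.1 gave a ligand median of -0.39 and 2 associated proteins called higher. A pseudocount of 5, which shrinks low genes, gave 357 genes called higher and 532 lower overall. It left 0 other subunits called lower, 0 activation genes called either way, and 0 higher in the adhesion complex, associated proteins and traffic, with medians of -0.11 for ligands and -0.25 for the adhesion complex. Sipa1 (-0.90), Krit1 (0.70), Cd151 (0.89), Rabgap1 (0.77) and Rab5a (0.90) were not called with it. Without a minimum fold, FDR alone called 4741 genes higher and 3807 lower, which is 40.2% and 32.3% of all genes fitted. Of the 8 fitted integrins it called 3 higher and 3 lower, and of 3 other subunits 1 higher and 2 lower. In the same order, the counts were 2 and 4 of 8 ligands and 4 and 9 of 22 activation genes. They were 10 and 16 of 29 for the adhesion complex, 5 and 8 of 13 for associated proteins and 5 and 4 of 14 for traffic. Leaving out 1 library at a time gave 0 to 1 activation genes called higher and 1 to 2 lower, 0 to 2 associated proteins higher and 0 to 2 traffic genes higher, through the calls of Krit1, Sipa1, Cd151, Slc3a2, Rabgap1 and Rab5a given above. In an alternative chosen after seeing the data, Gm49368 was summed with Itgam, and the Itgam share of beta 2 alpha partners was 88.0% with LPS and 57.5% with LPS + UDCA, with 2.36 alpha partners per Itgb2 with LPS. The values do not settle whether replicate numbers pair the libraries. Same-numbered libraries deviated with correlations of -0.035 to 0.146 over 4 pairs, against -0.145 to 0.162 over 12 other pairs. Of the 8 libraries, 5 correlated best with their own number. With replicate number as a block, the fit called 1034 genes higher and 1000 lower, with the same counts as the fit without it for the integrins and all 6 lists. Depth is not known from TPM, so the limit it sets on Itgax and Itgb3 cannot be given.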
